A study of Mus musculus with 8 samples.

Results

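The genes described here make, sense and move cholesterol and fatty acids. A list of 38 gene symbols was matched by name in a table of 23356 genes, and all 38 were found. By role they fell into 6 branches, with 7 genes of the mevalonate branch, 10 of the squalene and sterol branch, 5 regulators of SREBP, 3 sterol carriers, 5 LXR receptors and targets and 8 genes of the fatty acid branch. The rule names genes by function and uses none of their values, but the list was chosen with earlier results of these data known.

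Cells build cholesterol from acetyl-CoA through mevalonate, isoprenoid diphosphates, squalene and a series of sterol intermediates. The genes of this route are activated by SREBP2, a transcription factor that is held in the endoplasmic reticulum by Scap and Insig proteins while membrane cholesterol is high and is released for cleavage when it is low, whereas SREBP1 acts mostly on the genes of fatty acid synthesis. LXR receptors sense oxysterols, which are oxidized forms of cholesterol, and drive cholesterol export, and in macrophages and DCs the balance of these programs changes as the cells are activated.

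RNA from bone marrow-derived dendritic cells (BMDCs) of WT and GEF-H1-/- mice was sequenced in 4 groups of 2 libraries each. BMDCs were grown from marrow of C57BL/6N mice with GM-CSF and IL-4, and GEF-H1-/- cells came from mice that lack the gene Arhgef2 in all tissues. Treated cells received 100 nM ansamitocin-P3, a maytansine derivative that binds tubulin and takes microtubules apart, for 5 h, and control cells of either genotype received no drug (0 nM). GEF-H1 is a guanine nucleotide exchange factor for RhoA that is bound to microtubules and released when they come apart, so the comparisons ask how microtubule destabilization alters the lipid genes and how far the answer differs without GEF-H1.

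Arhgef2 was at 42.3 FPKM in control and 45.9 FPKM in treated WT DCs, and at 4.59 and 4.16 FPKM in control and treated GEF-H1-/- DCs. Of 7 dendritic cell markers, Itgax was at 102 FPKM, Cd74 at 3676 FPKM and Flt3 at 2.10 FPKM in control WT DCs. Among control cells, 5 of the 7 had lower values in GEF-H1-/- than in WT DCs and 2 had higher values. Their log2 differences ran from -0.65 (Zbtb46) to 0.34 (Itgax), and all intervals overlapped. The 3 erythroid markers were under 1 FPKM in every group, and the summed level of 3 T and B cell markers lay between 4.27 and 8.74 FPKM. Markers of other myeloid cells were present, and some of them differed between genotypes, not all in the same direction. In the order WT control, WT with drug, GEF-H1-/- control and GEF-H1-/- with drug, the sum over 7 macrophage markers was 176, 116, 255 and 227 FPKM, the sum over 4 mast cell and basophil markers was 107, 109, 198 and 190 FPKM, and the sum over 5 granulocyte markers was 30316, 35748, 20984 and 21446 FPKM, most of it from S100a9 and S100a8, whose own value lies outside its Cuffdiff interval. Among control cells, 3 of 7 macrophage, 3 of 4 mast cell and basophil and 1 of 5 granulocyte markers were higher in GEF-H1-/- DCs by intervals that did not overlap, and 2 of 5 granulocyte markers were lower. Over all genes, 2.86% were higher and 1.88% lower by this rule. In control WT and GEF-H1-/- DCs, C1qa was at 4.22 and 29.2 FPKM, C1qb at 26.0 and 67.4 FPKM and Mrc1 at 9.62 and 16.0 FPKM. The intervals of Adgre1, Csf1r, Fcgr1 and Mertk overlapped there, with log2 differences from -0.22 to 0.10. Of the granulocyte markers, Mpo was at 26.4 and 63.1 FPKM and Camp at 189 and 15.0 FPKM, and S100a8 was the other lower one. The part of these cell types in the differences between genotypes given here was not tested.

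Levels are given as FPKM, fragments per transcript length and per sequenced total, a unit that corrects for gene length and sequencing depth. The table holds 1 value per gene and group that pools the 2 libraries, with the bounds of a 95% interval from Cuffdiff, so there is no SD, no n and no p-value for any difference. Changes are log2 ratios of FPKM + 1, followed in brackets by an approximate 95% range worked out from the Cuffdiff intervals. A gene was counted as changed in 2 ways, with a log2 ratio over 1 or under -1, or with intervals of the 2 groups that did not overlap, and "rose" and "fell" are used where the intervals did not overlap. All 38 genes passed a filter of 1 FPKM in at least 1 group, as did 11397 genes in all, and the median width of the members' intervals was 45.2% of the value. The comparisons share groups with each other and are not independent.

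The promoters of 4 of the genes are shown with matches to the sterol regulatory element, the NF-Y box and the E-box. The NF-Y box and the E-box are not particular to sterol genes, with matches in 37.4% and 7.15% of all promoter windows. Elements bound by LXR were not searched. The sterol regulatory element, to which SREBP binds, was searched as TCACNCCAC, the NF-Y box as CCAAT and the E-box as CACGTG, on both strands, in RefSeq windows of 250 bases before and 50 bases after each start site (GRCm38.p6). Of the 38 genes, 29 matched and had 38 windows, and Fdps, Fdft1, Sqle, Stard4, Npc1, Abcg1, Scd1, Scd2 and Fads1 were not analysed here. The sequences run 5′ to 3′ on the strand of the gene, hold the 250 bases before the start and have motif matches in capitals. Hmgcs1 (chr13:119690101-119690350, plus strand) is the member that held the sterol regulatory element, Cyp51 (chr5:4104698-4104947, minus strand) and Hsd17b7 (chr1:169969206-169969455, minus strand) make sterols and were higher in GEF-H1-/- DCs, and Fasn (chr11:120824548-120824797, minus strand) had the lowest log2 ratio of FPKM + 1 with the drug in WT DCs among the 38, while by the ratio of FPKM alone Acat2 fell further (0.415 against 0.426).
Hmgcs1: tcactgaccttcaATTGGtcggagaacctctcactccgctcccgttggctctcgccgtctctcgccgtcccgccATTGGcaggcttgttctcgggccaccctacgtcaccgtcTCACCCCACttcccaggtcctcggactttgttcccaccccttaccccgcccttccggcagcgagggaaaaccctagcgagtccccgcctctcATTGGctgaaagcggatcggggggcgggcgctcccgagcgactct
Cyp51: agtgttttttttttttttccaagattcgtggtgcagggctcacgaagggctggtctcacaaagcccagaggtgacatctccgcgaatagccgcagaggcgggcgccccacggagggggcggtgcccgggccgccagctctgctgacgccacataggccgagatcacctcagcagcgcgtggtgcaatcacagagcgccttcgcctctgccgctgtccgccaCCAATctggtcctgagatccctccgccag
Hsd17b7: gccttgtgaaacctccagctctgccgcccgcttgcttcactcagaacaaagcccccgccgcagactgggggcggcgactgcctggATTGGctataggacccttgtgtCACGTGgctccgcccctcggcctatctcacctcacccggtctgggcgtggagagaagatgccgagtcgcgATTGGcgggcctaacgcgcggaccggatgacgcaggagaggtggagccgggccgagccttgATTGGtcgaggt
Fasn: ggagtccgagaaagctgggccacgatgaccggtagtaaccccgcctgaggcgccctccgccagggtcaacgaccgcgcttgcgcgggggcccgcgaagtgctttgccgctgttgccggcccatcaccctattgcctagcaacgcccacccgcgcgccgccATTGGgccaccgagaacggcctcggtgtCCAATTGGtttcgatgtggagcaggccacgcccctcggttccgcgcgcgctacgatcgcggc
The sterol regulatory element of Hmgcs1 lay at bases -137 to -129 from the start as TCACCCCAC. This spelling was in 1 of 38 member windows and in 1.24% of all 32851 windows. The NF-Y box was in 22 of 38 member windows, or 57.9%, against 37.4% of all windows, and by branch in 5 of 7 mevalonate, 8 of 10 sterol, 5 of 10 SREBP regulator, 1 of 5 LXR and 2 of 5 fatty acid windows. In Fasn the boxes on either strand overlap as CCAATTGG. The E-box was in 7 of 38 member windows, or 18.4%, against 7.15% of all windows, and Hsd17b7 held it at -143 to -138. The genes with it were Abca1, Dhcr7, Hsd17b7, Insig1, Sc5d and Scap. Overlapping windows of Scap share the same match, which was counted in each, and windows of the same gene are not independent. These are matches of letters and not measured binding sites, and other spellings of the sterol element were not searched.

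By branch medians, the genotype difference was largest in the sterol branch and the drug change in WT DCs was largest in the fatty acid branch. In control cells the sterol branch was higher in GEF-H1-/- than in WT DCs, with a median log2 difference of 0.72, and the mevalonate branch had a median of 0.40, while the fatty acid branch was at 0.08. With ansamitocin-P3 in WT DCs, the fatty acid branch had a median log2 change of -0.63, the mevalonate branch of -0.16 and the sterol branch of -0.05. In GEF-H1-/- DCs the same treatment gave medians of -0.12, 0.06 and 0.03. The median of all 11397 genes was 0.00 in WT DCs, -0.01 in GEF-H1-/- DCs and -0.01 between the control groups. In bulk RNA, fewer cells of a type and less RNA per cell cannot be told apart, and a difference between genotypes cannot be told apart from one between the cultures of the mice used.

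**Figure D1:**
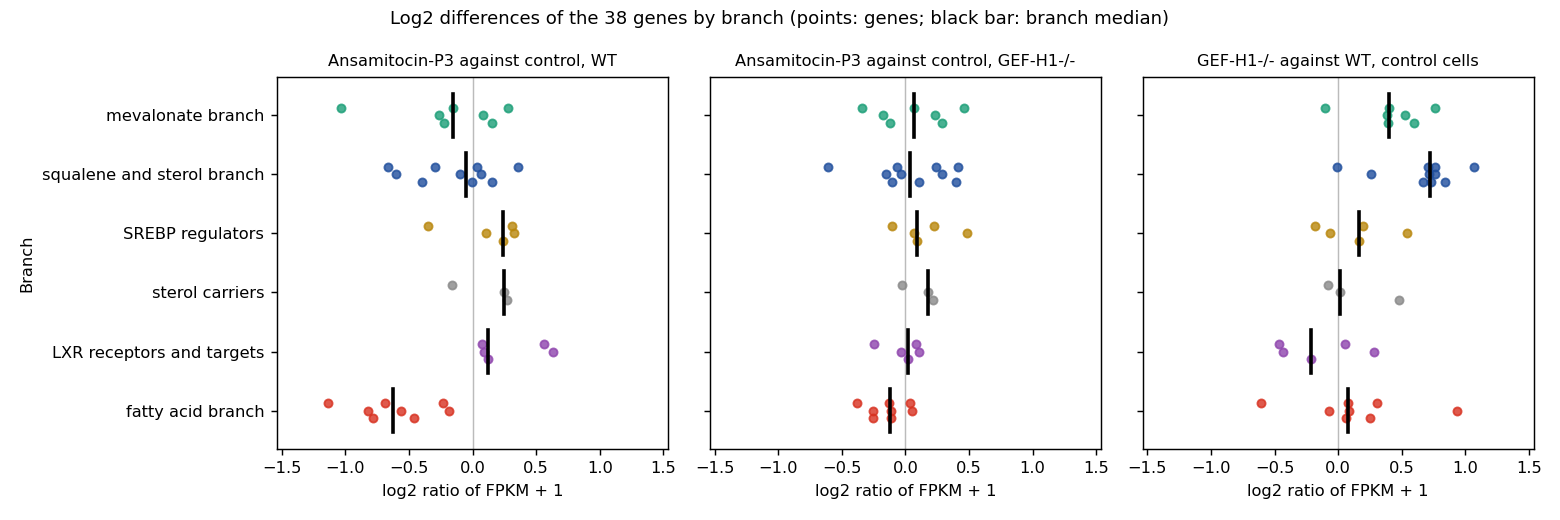
Log2 ratios of FPKM + 1 of the 38 genes by branch for the drug in WT DCs, the drug in GEF-H1-/- DCs and GEF-H1-/- against WT control cells; each point is a gene and each black bar a branch median. The fatty acid genes lie left of 0 in WT DCs (median -0.63), and the sterol genes lie mostly right of 0 in the comparison of genotypes (median 0.72).

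By the fold rule, 2 of 38 genes changed with the drug in WT DCs, against 4.94% of all genes, and both of them, Acat2 and Fasn, fell. By the intervals, 8 of 38 fell, against 7.58% of all genes, and 1 rose, Abcg1, against 9.19% of all genes. In GEF-H1-/- DCs none of the 38 changed by either rule, where 1.08% of all genes passed the fold rule and 3.70% had intervals apart. Between control cells of the 2 genotypes, 1 of 38 genes passed the fold rule (Sqle, background 1.88%), 9 had higher intervals in GEF-H1-/- DCs (background 2.86%) and 1 had lower (Scd1, background 1.88%). Between treated cells, 8 passed the fold rule (background 4.06%), 17 had higher intervals in GEF-H1-/- DCs (background 7.02%) and 2 had lower, Abcg1 and Mylip (background 6.73%).

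In the mevalonate branch, Idi1 was higher in GEF-H1-/- DCs among control cells, Acat2, Hmgcs1, Idi1 and Fdps were higher among treated cells, and Acat2 fell with the drug in WT DCs. Of all genes, 2.86% were higher in control and 7.02% in treated GEF-H1-/- DCs, and 7.58% fell in WT DCs. Idi1, which interconverts the isoprenoid building blocks, was at 33.1 FPKM in WT control cells, 40.4 FPKM in WT cells given the drug, 56.8 FPKM in GEF-H1-/- control cells and 78.4 FPKM in GEF-H1-/- cells given the drug. Its intervals did not overlap between genotypes in control cells, with a log2 difference of 0.76 (0.32 to 1.21), or in treated cells, with 0.94 (0.48 to 1.40). Fdps, which makes farnesyl diphosphate, was the most abundant enzyme of the branch at 62.7, 56.2, 90.7 and 94.9 FPKM in the same order. Its intervals overlapped in control cells (0.53, range 0.07 to 0.98) and were apart in treated cells (0.75, range 0.26 to 1.23). Hmgcs1, the HMG-CoA synthase that commits acetyl units to the pathway, was at 19.4, 21.7, 29.9 and 35.2 FPKM. It was higher in treated GEF-H1-/- than in treated WT DCs by 0.67 (0.24 to 1.11) on the log2 scale.

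Acat2, the cytosolic thiolase that makes acetoacetyl-CoA, was the mevalonate gene that fell with the drug in WT DCs, from 6.96 to 2.89 FPKM, or 0.415 of control (log2 -1.03, range -1.43 to -0.64). In GEF-H1-/- DCs it was at 9.50 FPKM in control and 7.29 FPKM in treated cells, with overlapping intervals (-0.34, range -0.72 to 0.04). The genotypes differed in treated cells by 1.09 (0.70 to 1.48), with intervals apart. The difference between the 2 drug effects was 0.69 (0.15 to 1.24). Treated WT DCs thus held the lowest of the 4 values. The kinases Mvk and Pmvk and the decarboxylase Mvd kept overlapping intervals in every comparison. Mvk was at 9.81, 8.01, 13.1 and 11.5 FPKM and Mvd at 23.9, 20.3, 31.7 and 29.1 FPKM in the order above, and Pmvk stayed between 20.7 and 25.5 FPKM. None of the 7 genes had intervals apart with the drug in GEF-H1-/- DCs, where 3.70% of all genes did.

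In the squalene and sterol branch, 7 of 10 genes were higher in GEF-H1-/- than in WT control cells by their intervals, and these 7 were also higher in treated cells. They were Sqle, Lss, Cyp51, Nsdhl, Hsd17b7, Sc5d and Dhcr7. Of all genes, 2.86% were higher by this rule in control and 7.02% in treated GEF-H1-/- DCs. Sqle, the squalene epoxidase that catalyzes a rate-limiting step (chr15:59315092-59331193, mm10), was at 11.3 FPKM in WT control cells and 14.8 FPKM in WT cells given the drug, while GEF-H1-/- DCs held 24.8 FPKM without and 33.3 FPKM with the drug. It was 2.19-fold higher in GEF-H1-/- control cells (log2 1.07, range 0.62 to 1.51) and 2.25-fold higher in treated cells (1.12, range 0.67 to 1.57). The values of both GEF-H1-/- groups lay above those of both WT groups. With the drug its intervals overlapped, at 0.36 (-0.08 to 0.80) in WT and 0.41 (-0.04 to 0.86) in GEF-H1-/- DCs.

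The enzymes that close and trim the sterol ring gave similar differences. Lss, which closes squalene epoxide into lanosterol, was at 6.60, 5.19, 11.9 and 11.5 FPKM in control WT, treated WT, control GEF-H1-/- and treated GEF-H1-/- DCs. Cyp51, the lanosterol demethylase, was at 10.2, 10.5, 19.1 and 23.5 FPKM. Nsdhl, which acts next with its partners to remove methyl groups, was at 9.34, 6.84, 15.4 and 13.8 FPKM. Log2 differences between genotypes in control cells were 0.76 (0.38 to 1.14) for Lss, 0.84 (0.39 to 1.29) for Cyp51 and 0.67 (0.25 to 1.09) for Nsdhl. Hsd17b7, the sterol ketone reductase of the same complex, was the lowest of the 7 at 3.22, 2.93, 5.99 and 8.19 FPKM. Its difference was 0.73 (0.30 to 1.16) in control and 1.23 (0.78 to 1.67) in treated cells. Sc5d, a sterol desaturase, was at 10.2, 11.5, 17.2 and 20.6 FPKM, a difference of 0.70 (0.24 to 1.17) in control cells. None of these 5 genes had intervals apart with the drug in either genotype. With the drug, 9.19% of all genes rose and 7.58% fell in WT DCs, and 3.70% had intervals apart in GEF-H1-/- DCs.

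Dhcr7, which reduces the last intermediate to cholesterol (chr7:143823167-143848410), was the sterol gene that also fell with the drug. It went from 10.2 to 6.35 FPKM in WT DCs (log2 -0.60, range -1.02 to -0.19) and was at 17.3 and 16.5 FPKM in GEF-H1-/- DCs (-0.07, range -0.49 to 0.36). In treated cells the genotypes differed 2.60-fold. The range of the difference between the drug effects, 0.54 (-0.05 to 1.13), held 0. Ebp, a sterol isomerase, did not follow the others, with 30.7, 30.6, 30.4 and 28.3 FPKM and a genotype difference of -0.01 (-0.53 to 0.51) in control cells. Fdft1, the squalene synthase, was at 8.96, 9.43, 15.9 and 17.2 FPKM with intervals of 170% to 198% of the value, and its genotype difference of 0.76 had a range of -0.92 to 2.44. Its listed locus overlaps Ctsb, which encodes a lysosomal protease. Tm7sf2, a sterol reductase whose locus overlaps Vps51, was at 5.63, 3.19, 6.94 and 4.21 FPKM with intervals of at least 98.0% of the value. The locus of Lss overlaps Spatc1l, and a share of reads from the overlapping genes cannot be told apart here.

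**Figure D2:**
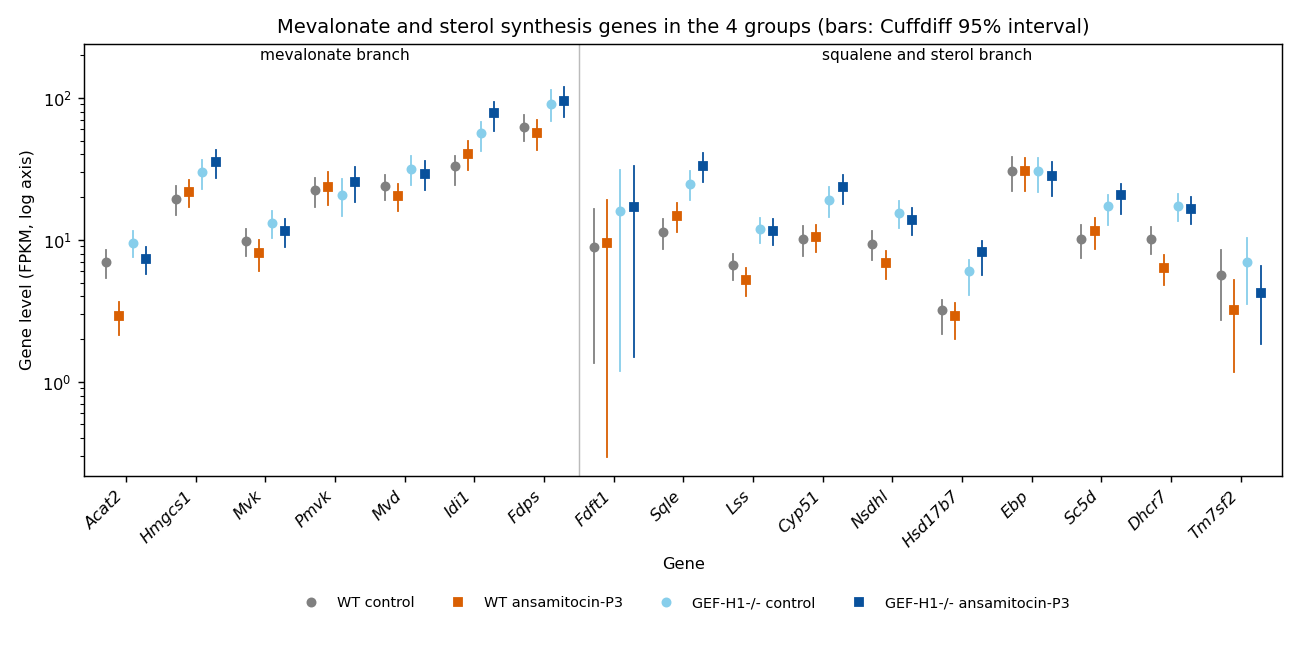
FPKM on a log axis of the 7 mevalonate and 10 squalene and sterol genes in the 4 groups, with bars for the Cuffdiff 95% interval. For Sqle both GEF-H1-/- values (24.8 and 33.3) lie above both WT values (11.3 and 14.8), Ebp is level near 30.7, and the bars of Fdft1 span most of the axis.

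In the fatty acid branch, the genotypes had a median log2 difference of 0.08 in control cells and 0.50 in treated cells, where 4 of 8 genes were higher in GEF-H1-/- DCs by their intervals. In WT DCs all 8 genes had negative log2 changes, from -1.13 to -0.18, and 6 of 8 fell by their intervals, namely Acaca, Fasn, Elovl6, Scd1, Scd2 and Fads1. In GEF-H1-/- DCs none of the 8 had intervals apart, and their log2 changes ran from -0.38 to 0.05. Of all genes, 7.02% were higher in treated GEF-H1-/- than in treated WT DCs, and 7.58% fell in WT DCs. With the drug in GEF-H1-/- DCs, 3.70% of all genes had intervals apart, so none of 8 is near that share. Fasn, the synthase that assembles palmitate (chr11:120805958-120824547), was at 18.5 FPKM in control WT and 7.88 FPKM in treated WT DCs, a ratio of 0.426 (log2 -1.13, range -1.48 to -0.79). It was at 22.2 FPKM in control and 23.0 FPKM in treated GEF-H1-/- DCs (0.05, range -0.30 to 0.41). Treated WT DCs stood apart from the other 3 groups, whose values lay between 18.5 and 23.0 FPKM. In treated cells the genotypes differed 2.93-fold (log2 1.44, range 1.09 to 1.78). The difference between the drug effects was 1.19 (0.69 to 1.69), and Fasn was the single member past 1 in this comparison (background 1.90%).

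Acaca, the acetyl-CoA carboxylase that supplies Fasn with malonyl-CoA (chr11:84195438-84401651), was likewise lowest in treated WT DCs. It was at 7.73 FPKM in control and 3.94 FPKM in treated WT DCs (log2 -0.82, range -1.19 to -0.45), and at 8.18 and 8.41 FPKM in GEF-H1-/- DCs (0.04, range -0.35 to 0.42). The genotypes differed by 0.93 (0.56 to 1.30) in treated cells, and the drug effects by 0.86 (0.33 to 1.38). Acly, which makes the cytosolic acetyl-CoA that feeds both fatty acids and sterols, was at 72.0, 61.3, 76.4 and 70.7 FPKM with overlapping intervals throughout. Elovl6, which lengthens palmitate, was the lowest of the branch at 1.36, 0.716, 1.91 and 1.44 FPKM. Its intervals were apart with the drug in WT DCs (-0.46, range -0.72 to -0.20) and between treated genotypes (0.51, range 0.25 to 0.76). At these levels the added 1 FPKM makes the log2 change smaller than that of FPKM alone.

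The desaturases, which place unsaturated bonds in fatty acids, differed among themselves. Scd2 was the most abundant at 64.5, 37.0, 61.4 and 51.3 FPKM (WT control, WT with drug, GEF-H1-/- control, GEF-H1-/- with drug), with a log2 change of -0.78 (-1.25 to -0.32) in WT DCs. Scd1 was at 17.2, 10.3, 10.9 and 8.17 FPKM in that order. It fell in WT DCs by 0.69 (log2, range -1.10 to -0.28) and was the single member with lower intervals in GEF-H1-/- DCs among control cells (-0.61, range -1.02 to -0.20). The 2 Scd genes are close relatives, and reads that match either can be divided in error. Fads1 was at 11.7, 7.58, 12.2 and 11.1 FPKM, and fell in WT DCs (-0.56, range -0.94 to -0.19). Fads2, which acts in the same route to polyunsaturated fatty acids, was at 5.35, 4.60, 11.1 and 10.2 FPKM. It had overlapping intervals with the drug and was 2.08-fold higher in control GEF-H1-/- cells (0.93, range 0.50 to 1.37), as the sterol genes were.

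**Figure D3:**
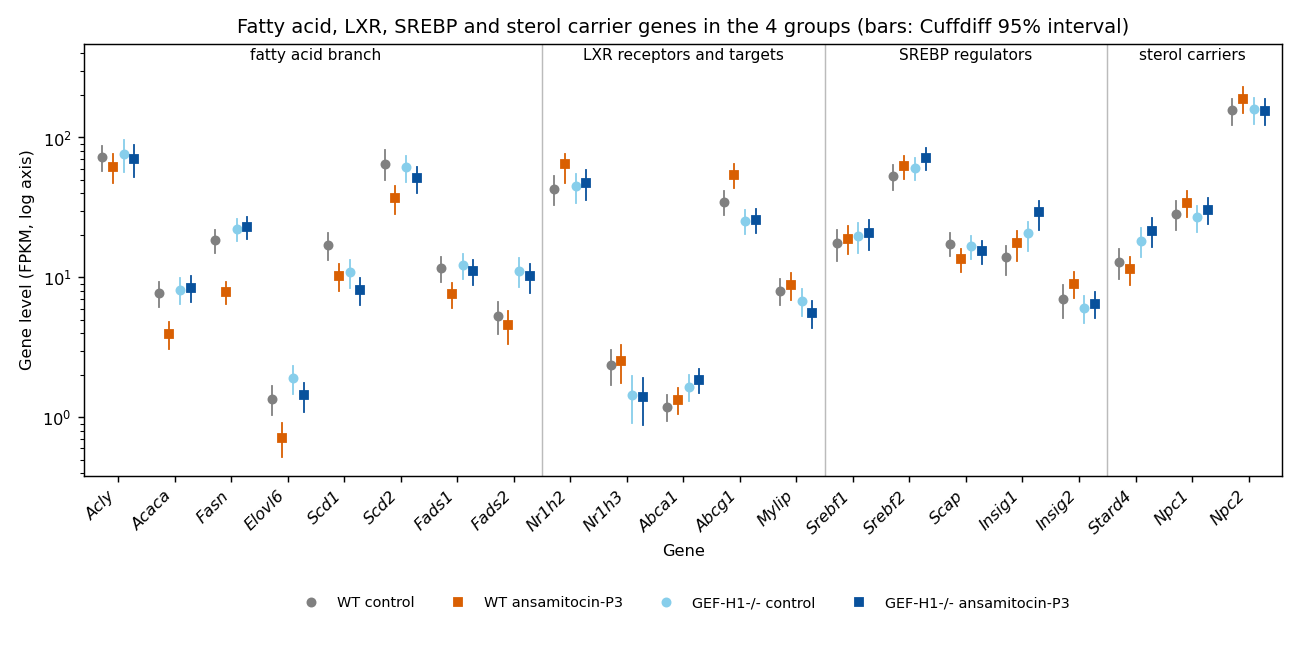
FPKM on a log axis of the fatty acid, LXR, SREBP regulator and sterol carrier genes in the 4 groups, with bars for the Cuffdiff 95% interval. Fasn and Acaca are lowest in treated WT DCs (7.88 and 3.94), Abcg1 is highest there (54.3), and Srebf1, Srebf2, Npc1 and Npc2 have overlapping bars.

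The fall in WT DCs thus covered 6 of 8 fatty acid genes, 1 of 7 mevalonate genes and 1 of 10 sterol genes, and none of the SREBP regulators, carriers or LXR genes. Over all genes 7.58% fell, so single falls among 7 and 10 genes do not set those branches apart. In the plot of the drug effect by genotype, Fasn, Acaca and Acat2 lie above the line of equal values and Abcg1 below it, with a difference between the drug effects of -0.61 (-1.16 to -0.07) for Abcg1. Tm7sf2 lies near the line, with -0.66 (-1.60 to 0.27) in WT and -0.61 (-1.50 to 0.29) in GEF-H1-/- DCs. Whether drug effects differ between genotypes was not tested, since the table holds no single libraries.

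**Figure D4:**
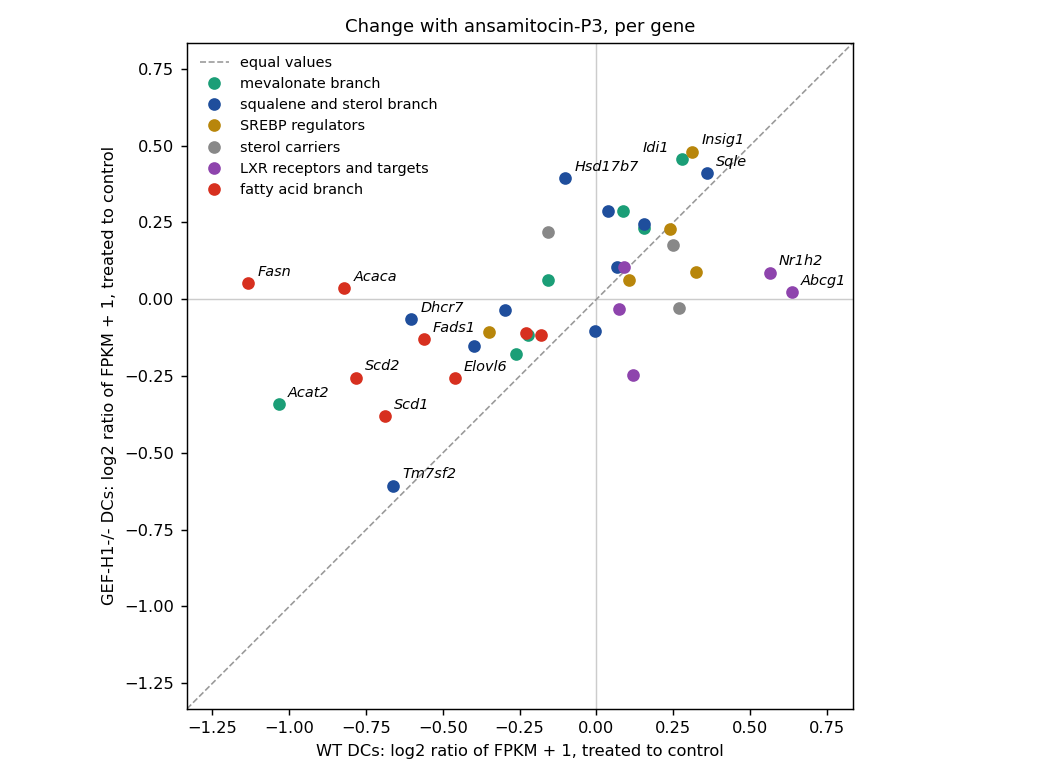
Log2 ratio of FPKM + 1, treated to control, in WT DCs (x axis) and in GEF-H1-/- DCs (y axis) for each of the 38 genes, coloured by branch, with a dashed line where both are equal. Fasn is at -1.13 and 0.05, Acat2 at -1.03 and -0.34, and Abcg1 at 0.64 and 0.02.

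Of the 5 SREBP regulators, Insig1 alone had intervals apart in any comparison of the 4 between 2 groups, that of treated genotypes. In that comparison 7.02% of all genes were higher in GEF-H1-/- DCs. Srebf2, which encodes SREBP2, was at 52.7, 62.3, 60.5 and 71.0 FPKM in control WT, treated WT, control GEF-H1-/- and treated GEF-H1-/- DCs, and Scap, the escort protein of SREBP, at 17.5, 13.5, 16.7 and 15.4 FPKM, with overlapping intervals in all comparisons. Srebf1 stayed between 17.5 and 20.7 FPKM, in a row whose locus also covers Rai1. Insig1, which retains SREBP and is itself a target of it, was at 14.0, 17.6, 20.8 and 29.5 FPKM. Its intervals overlapped in control cells (0.54, range 0.09 to 0.99) and were apart in treated cells (0.71, range 0.26 to 1.16). Insig2, the other retention protein, was at 7.00, 9.03, 6.06 and 6.51 FPKM, and the estimate for treated genotypes was -0.42 (-0.80 to -0.04) with overlapping intervals.

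Among the sterol carriers, Stard4, which moves cholesterol between membranes, was at 12.8, 11.4, 18.3 and 21.5 FPKM in the same order. The genotypes differed in treated cells by 0.86 (0.42 to 1.30), with intervals apart, and in control cells by 0.48 (0.03 to 0.93), with overlapping intervals. Npc1 and Npc2, which release cholesterol from lysosomes, had overlapping intervals throughout. Npc1 lay between 26.8 and 34.0 FPKM, in a locus that overlaps Rmc1, and Npc2 was the most abundant of the 38 genes, between 155 and 189 FPKM.

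Of the LXR genes, Abcg1, a transporter that exports cholesterol to lipoproteins, was the 1 of 38 members that rose with the drug in WT DCs. Of all genes 9.19% rose there, so a single rise does not set the branch apart. Abcg1 went from 34.6 to 54.3 FPKM in WT DCs (log2 0.64, range 0.24 to 1.03) and was at 25.3 and 25.8 FPKM in GEF-H1-/- DCs (0.02, range -0.36 to 0.41). In treated cells it was 0.475 of WT in GEF-H1-/- DCs (-1.05, range -1.44 to -0.65). Treated WT DCs held the highest of the 4 values. Nr1h2, which encodes LXR beta, was at 43.0, 64.1, 44.7 and 47.5 FPKM. Its intervals overlapped in WT DCs, although the approximate range of the change (0.56, range 0.11 to 1.02) lay above 0.

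Nr1h3, which encodes LXR alpha, was at 2.37, 2.54, 1.44 and 1.39 FPKM, and Abca1, another cholesterol exporter, at 1.19, 1.33, 1.66 and 1.86 FPKM, both with overlapping intervals in all comparisons. Mylip, a ubiquitin ligase that removes lipoprotein receptors, was at 8.06, 8.84, 6.80 and 5.57 FPKM. It was lower in treated GEF-H1-/- than in treated WT DCs by intervals that did not overlap (-0.58, range -0.97 to -0.19). The branch had a median log2 difference between control genotypes of -0.22, against 0.72 of the sterol branch, and none of its 5 genes had intervals apart there. Between these control groups, 2.86% of all genes were higher and 1.88% lower in GEF-H1-/- DCs.

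Further genes of the same routes were counted from lists of their functions. Of 5 other sterol synthesis genes listed, none had intervals apart with the drug in either genotype or between control genotypes, and 1, Tmem97, was higher in treated GEF-H1-/- DCs. Tmem97, a sterol-regulated membrane protein named here after its values were seen, was at 24.8 and 14.8 FPKM in WT cells without and with the drug and at 33.9 and 29.4 FPKM in the matching GEF-H1-/- cells. Its difference between treated genotypes was 0.95 (0.46 to 1.43) on the log2 scale. Among 6 other genes of SREBP cleavage and Insig turnover, none had intervals apart in any comparison. Of 15 other fatty acid synthesis genes that passed the filter, out of 16 listed, none had intervals apart with the drug in either genotype and 1 was higher in control GEF-H1-/- DCs. These 15 genes had a median log2 change of -0.02 with the drug in WT DCs, with 6 above 0 and 9 below. The median of the 8 genes of the fatty acid branch was -0.63. Over all genes, 9.19% rose and 7.58% fell in WT DCs, and 3.70% had intervals apart with the drug in GEF-H1-/- DCs. Between genotypes, 2.86% were higher in control and 7.02% in treated GEF-H1-/- DCs.

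Of 12 genes of sterol transport and oxysterols, 1 rose and 3 fell in WT DCs, and 1 rose and 2 fell in GEF-H1-/- DCs. Over all genes, 9.19% rose and 7.58% fell in WT DCs, and 3.70% had intervals apart in GEF-H1-/- DCs. Ch25h, an enzyme that turns cholesterol into an oxysterol, rose in both genotypes. It went from 0.769 to 6.44 FPKM in WT DCs (log2 2.07, range 1.62 to 2.52) and reached 17.9 FPKM from 9.06 FPKM in GEF-H1-/- DCs (0.91, range 0.42 to 1.39). Its level in control GEF-H1-/- DCs was 2.51 (2.05 to 2.97) above that of control WT DCs on the log2 scale, and overlapped by its interval with that of treated WT DCs. Cyp27a1, another enzyme that makes oxysterols, which is named after its values were seen, fell in both genotypes. It was at 1.09 and 0.323 FPKM in WT DCs without and with the drug (-0.66, range -0.97 to -0.35) and at 0.983 and 0.418 FPKM in GEF-H1-/- DCs (-0.48, range -0.81 to -0.16). Beside the falls in WT DCs, 2 of 7 macrophage markers fell, and of 7 DC markers 1 rose and 2 fell. The shares of all genes there were 9.19% that rose and 7.58% that fell. All 7 macrophage markers had negative log2 changes in WT DCs, with a median of -0.53, against -0.15 in GEF-H1-/- DCs. The fatty acid branch had medians of -0.63 and -0.12 in the same order, with all 8 genes negative in WT DCs. DC markers had medians of 0.37 and 0.12. Mertk, a macrophage receptor, fell under both genotypes. Without and with the drug, WT DCs held 5.46 and 0.778 FPKM of it (log2 -1.86, range -2.18 to -1.54). The matching GEF-H1-/- values were 4.56 and 2.53 FPKM (-0.65, range -1.01 to -0.30). Ccr7, the migration receptor of mature DCs, rose under both genotypes. WT DCs held 258 and 602 FPKM of Ccr7 (1.22, range 0.78 to 1.66). Its matching GEF-H1-/- values were 234 and 405 FPKM (0.79, range 0.35 to 1.22). The part of these cell states in the changes of the lipid genes was not tested.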

How the data were processed

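RNA of 8 libraries, 2 in each of 4 groups, was sequenced with a stranded kit for polyadenylated RNA as paired ends. The authors deposited FPKM per gene and group, computed by Cuffdiff 1.05 (version as the study gives it) on mm10, with 95% interval bounds and a status. The aligner and annotation of this table are not given in the sources used here. Columns of WT cells name no genotype and were assigned by elimination, and 0 columns of single samples were left unused. Of 23356 genes, 106 with low data and 1 with too much data were left out, and 11397 reached 1 FPKM in at least 1 group. The sum of FPKM over the genes kept by status ran from 594706 to 734144 per group. Library depth is unknown, since FPKM keeps no counts.

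Log2 ratios used a pseudocount of 1 FPKM. Their ranges took each interval as 1.96 standard errors on either side and groups as independent, and cover only the error that Cuffdiff models from 2 libraries. Differences within a group of libraries cannot be seen. The members and the 11 other gene lists were chosen with earlier results of these data known. Every member is given with its values, in full where a log2 value passed 0.5 in size or intervals were apart, and genes of other lists are named where they passed 1 in size with intervals apart under the drug (Ch25h, Mertk and Ccr7). Any other gene of those lists that is named with a change was chosen after its values were seen. Older symbols matched 4 listed genes, and Ly6g was not analysed here. Some results on further genes of these routes are not reported here. Gene loci follow the deposited table, counted from 1. The computation was tested on simulated data. Alternatives were pseudocounts of 0.1 and 5 FPKM, no filter or 5 FPKM, centring on the median gene, a log2 limit of 0.5 and the interval rule. Python 3.11.15, pandas 2.3.3, numpy 2.4.6 and matplotlib 3.10.9 were used.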

Additional observations from a re-analysis of the deposited data

Results flagged for a closer look

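The log2 change of Fasn with the drug passed -1 in WT DCs and was near 0, with the other sign, in GEF-H1-/- DCs. Fasn was at 18.5 and 7.88 FPKM in control and treated WT DCs and at 22.2 and 23.0 FPKM in control and treated GEF-H1-/- DCs, so that the drug effect in GEF-H1-/- DCs exceeded that in WT DCs by 1.19 on the log2 scale. The difference was not tested, because each group has 1 pooled value, and the intervals of the 2 GEF-H1-/- groups overlapped.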

How the results depend on the processing

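The 18 branch medians (6 branches in 3 comparisons) changed sign under none of 90 alternatives, but many of these could not change a sign. A pseudocount keeps the sign of each gene's change, and all 38 genes passed the filter, so leaving it out changed nothing. Centring moved values by 0.01 or less. No error of a branch median was computed, and shifts were set against the median standard error of the single genes of a branch. Of the 90, 89 stayed within it. The exception was the LXR branch in WT DCs, whose median went to 0.56 with a filter of 5 FPKM, because Nr1h3 and Abca1 dropped out. The median of the fatty acid branch in WT DCs ran from -0.77 to -0.46, and that of the sterol branch between control genotypes from 0.54 to 0.79. Counts of members past a log2 value of 1 depended on the pseudocount and the rule. A pseudocount of 0.1 FPKM gave 2 genes between control genotypes, and 5 FPKM gave 0 with the drug in WT DCs, 0 between control genotypes, 1 between treated genotypes and 0 for the difference in drug effects. A limit of 0.5 gave 10 with the drug in WT DCs, 1 in GEF-H1-/- DCs, 14 between control genotypes, 21 between treated genotypes and 6 for the difference in drug effects. The interval rule gave 9 with the drug in WT DCs, 10 between control genotypes and 19 between treated genotypes. The other 21 counts stayed within 1.5 times those reported. No paired analysis was possible because the table holds 1 pooled value per group, and for the same reason no library could be left out. Genes near 1 FPKM (Elovl6, Abca1, Nr1h3) and Fdft1 and Tm7sf2 with their wide intervals are the least certain.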

Other observations

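Genes of lipid uptake, storage and oxidation also differed between treated groups. Of 10 such genes listed, 9 passed the filter. With the drug in WT DCs, 2 of the 9 rose and 2 fell by intervals that did not overlap, against 9.19% and 7.58% of all genes. None of the 9 had intervals apart with the drug in GEF-H1-/- DCs, where 3.70% of all genes did. The genes named here were picked after their values were seen. Plin2, which coats lipid droplets, went from 140 to 254 FPKM in WT DCs (log2 0.86, range 0.48 to 1.24) and was at 144 and 161 FPKM in GEF-H1-/- DCs. Cd36, a fatty acid and lipoprotein scavenger receptor, went from 194 to 338 FPKM in WT DCs (0.80, range 0.29 to 1.30) and was at 194 and 231 FPKM in GEF-H1-/- DCs. Lpl, the lipase that frees fatty acids from lipoproteins, went from 713 to 407 FPKM in WT DCs (-0.81, range -1.21 to -0.40) and was at 716 and 798 FPKM in GEF-H1-/- DCs. Cpt1a, which admits fatty acids to mitochondria, went from 40.4 to 24.3 FPKM in WT DCs (-0.71, range -1.08 to -0.35) and was at 38.7 and 27.4 FPKM in GEF-H1-/- DCs (-0.48, range -0.85 to -0.11), where the intervals overlapped.

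Of the 12 genes of sterol transport and oxysterols, Lipa, Nceh1 and Rxra were also picked after their values were seen. Lipa, the lysosomal acid lipase, went from 109 to 57.6 FPKM in WT DCs (-0.91, range -1.35 to -0.47) and was at 130 and 120 FPKM in GEF-H1-/- DCs. Nceh1, a neutral cholesterol ester hydrolase, went from 13.2 to 6.85 FPKM in WT DCs (-0.86, range -1.29 to -0.43) and was at 11.8 and 10.1 FPKM in GEF-H1-/- DCs. Rxra, the partner of LXR receptors, was at 11.9, 8.08, 11.5 and 7.56 FPKM in control WT, treated WT, control GEF-H1-/- and treated GEF-H1-/- DCs. Its intervals were apart with the drug in GEF-H1-/- DCs (-0.54, range -0.90 to -0.18) and overlapped in WT DCs (-0.50, range -0.87 to -0.14).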
